A study of Mus musculus with 24 samples.

Results

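The genes described here are 10 receptors and ligands of the tumour necrosis factor (TNF) superfamily that take part in T cell co-stimulation, out of 55335 genes in the table. They were taken from a list of gene names and not by a cut on their values, but the list was chosen with earlier results of these data known. The receptors are Tnfrsf4 (OX40), Tnfrsf9 (4-1BB), Tnfrsf18 (GITR), Tnfrsf8 (CD30) and Tnfrsf1b (TNF receptor 2). The ligands are Tnfsf4 (OX40 ligand), Tnfsf8 (CD30 ligand), Tnfsf11 (RANK ligand), Tnfsf14 (LIGHT) and Cd40lg (CD40 ligand). The cells were invariant natural killer T (iNKT) cells sorted out of mesenteric lymph nodes, and their RNA was sequenced. The mice were C57BL/6J offspring of dams given a fecal transplant (FT) from wild-type donors (WT FT) or from CD1d-knockout donors (KO FT). Each mouse was gavaged with 2 µg of the glycolipid alpha-galactosylceramide (aGC) in 200 µL of PBS or with PBS alone, and its cells were taken 24 h later. With females and males this gave 8 groups of 3 libraries, 24 in all. The dams received the transplant, so donor, dam, litter and cage cannot be told apart. The age of the mice, how the sort was gated and how many mice made up a library are not stated in these sources. All 10 genes passed the filter on low counts, as did 15953 genes in all.

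iNKT cells carry a nearly fixed T cell receptor that binds glycolipids such as aGC on CD1d, and they answer within hours with cytokines and with proteins on their surface. Receptors of the TNF superfamily lie in the membrane and, when their trimeric ligands bind, recruit TRAF adaptor proteins that switch on NF-kappa-B and promote survival and cytokine production. On T cells OX40, 4-1BB and CD30 appear after antigen contact, while CD40 ligand, RANK ligand and LIGHT pass signals on to B cells, dendritic cells and stroma.

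Of the 10 genes 6 lie on chromosome 4 (GRCm38, gene models of GENCODE M21), in pairs and singly. Tnfrsf4 (ENSMUSG00000029075.6, 156013843 to 156016612, plus strand) ends 9551 bases before Tnfrsf18 (ENSMUSG00000041954.18, 156026164 to 156028895, plus strand). Tnfrsf1b (ENSMUSG00000028599.10, 145213463 to 145246870, minus strand) lies 20266 bases from Tnfrsf8 (ENSMUSG00000028602.12, 145267137 to 145315164, minus strand). Tnfrsf9 (ENSMUSG00000028965.13, 150914562 to 150946102, plus strand) and Tnfsf8 (ENSMUSG00000028362.2, 63831308 to 63861347, minus strand) lie apart from these. Tnfsf4 (ENSMUSG00000026700.4) is on chromosome 1, 161395409 to 161418410. Tnfsf11 (ENSMUSG00000022015.8) is on chromosome 14, 78277445 to 78308043. Tnfsf14 (ENSMUSG00000005824.7) is on chromosome 17, 57189492 to 57194177. Cd40lg (ENSMUSG00000031132.1) is on chromosome X, 57212143 to 57224042. Tnfrsf9 overlaps Camta1 and Tnfrsf18 overlaps the antisense RNA Gm16008 on the other strand. The libraries keep no strand, but Camta1 had at most 228 counts and Gm16008 at most 173 in any library.

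The 250 bases before the RefSeq start (GRCm38.p6; these starts can differ from the GENCODE gene starts) were searched on both strands for 3 motifs of factors that T cell activation engages. They were the NF-kappa-B site (kappa-B consensus), the AP-1 site TGANTCA and the NFAT core GGAAA. Windows were at hand for 8 of the 10 genes, with 2 starts for Tnfrsf9. The kappa-B consensus was in windows of 2 of the 8 genes and in 7.25% of all 32851 windows of this length, AP-1 in 3 of 8 and 6.75%, and GGAAA in 6 of 8 and 55.6%. The windows of Tnfrsf9 and Tnfrsf8 are shown because they held the kappa-B consensus, and those of Tnfrsf4 and Tnfrsf18 because these neighbours differ in level and in response to aGC. Capitals mark the matches. In the Tnfrsf9 window 2 overlapping kappa-B matches share bases with a GGAAA match on the other strand, and in the Tnfrsf8 window the capitals before the AP-1 site are also 2 overlapping kappa-B matches. A match is a description of the letters and not a site shown to be bound.
Tnfrsf9, second start, chr4:150927749-150927998, plus strand: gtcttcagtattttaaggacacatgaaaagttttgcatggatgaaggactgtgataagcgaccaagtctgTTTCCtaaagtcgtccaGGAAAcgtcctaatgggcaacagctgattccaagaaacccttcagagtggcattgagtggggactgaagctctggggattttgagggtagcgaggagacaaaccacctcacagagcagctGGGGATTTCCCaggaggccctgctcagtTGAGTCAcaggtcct
Tnfrsf8, chr4:145315165-145315414, minus strand: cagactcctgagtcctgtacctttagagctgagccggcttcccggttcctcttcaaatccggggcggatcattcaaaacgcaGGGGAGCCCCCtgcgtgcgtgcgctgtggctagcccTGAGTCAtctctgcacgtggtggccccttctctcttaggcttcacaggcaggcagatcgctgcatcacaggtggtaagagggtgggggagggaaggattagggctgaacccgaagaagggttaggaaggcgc
Tnfrsf4, chr4:156013445-156013694, plus strand: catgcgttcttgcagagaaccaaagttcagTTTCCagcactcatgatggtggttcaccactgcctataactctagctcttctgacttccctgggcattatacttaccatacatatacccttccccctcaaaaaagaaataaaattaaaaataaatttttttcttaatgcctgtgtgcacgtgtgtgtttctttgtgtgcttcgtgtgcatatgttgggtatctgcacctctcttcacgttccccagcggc
Tnfrsf18, chr4:156026072-156026321, plus strand: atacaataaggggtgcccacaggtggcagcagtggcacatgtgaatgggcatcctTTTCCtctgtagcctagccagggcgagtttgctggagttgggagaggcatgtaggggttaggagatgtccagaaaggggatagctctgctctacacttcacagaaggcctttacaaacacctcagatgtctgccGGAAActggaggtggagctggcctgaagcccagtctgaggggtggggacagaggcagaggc

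Libraries held 9764931 to 37016768 counts, and levels are given as CPM, counts scaled to library size by the trimmed mean of M-values (TMM). Libraries of a group differed by more than counting noise, with chi-square values between 4.01 and 16.5 per degree of freedom where counting alone gives 1. The labels do not say that libraries of a group came from separate mice, so p-values measure the spread between libraries, which may be technical. The cells carried the iNKT genes: Trav11 and Zbtb16 had group means of 336 to 848 and 34.1 to 80.2 CPM. The summed level of 8 iNKT genes was 6550 to 7730 CPM in PBS libraries and 4570 to 5410 in aGC libraries. All 8 were called lower by edgeR after aGC in both transplants, against 37.5% of all tested genes in WT FT and 30.1% in KO FT. The cause of this fall was not tested. Cd8a, which most mouse iNKT cells lack, was at 131 to 292 CPM in every library of PBS males and aGC females and at 4.79 to 8.10 CPM in every library of PBS females and aGC males, in both transplants. The summed level of 8 naive T cell markers split the same way, 2650 to 3540 against 1330 to 1740 CPM. The labelled sex matched every library: Xist, which females express, was at 8.76 to 48.3 CPM in the 12 female and at 0 to 0.646 in the 12 male libraries, and the Y-linked Eif2s3y at 0 to 0.906 and 58.5 to 103. The Cd8a pattern crosses treatment and sex, and whether it came with the sort or with the treatment labels was not tested. For this reason the main results are also given without PBS males and aGC females, a choice made after seeing the data that leaves PBS females against aGC males.

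Per kilobase of exon, the 10 genes spanned several orders of magnitude. Tnfrsf18 was the highest after PBS, with group means of 253 to 318 CPM per kilobase, followed by Cd40lg at 194 to 249. Tnfrsf1b lay at 44.1 to 62.0 on this scale, Tnfsf14 at 33.1 to 47.8, Tnfrsf9 at 31.0 to 36.6 and Tnfsf11 at 15.9 to 25.8. Tnfrsf4, at 4.05 to 20.7, was lower than its neighbour Tnfrsf18 in every group. The ligands Tnfsf8 (0.536 to 3.79) and Tnfsf4 (0.156 to 1.15) were low, and Tnfrsf8 (0 to 0.126) was at the edge of detection. After aGC the order changed through Tnfrsf9, which at 148 to 182 CPM per kilobase came near Cd40lg (155 to 218), and through Tnfrsf4, which reached 28.3 to 82.6.

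**Figure D1:**
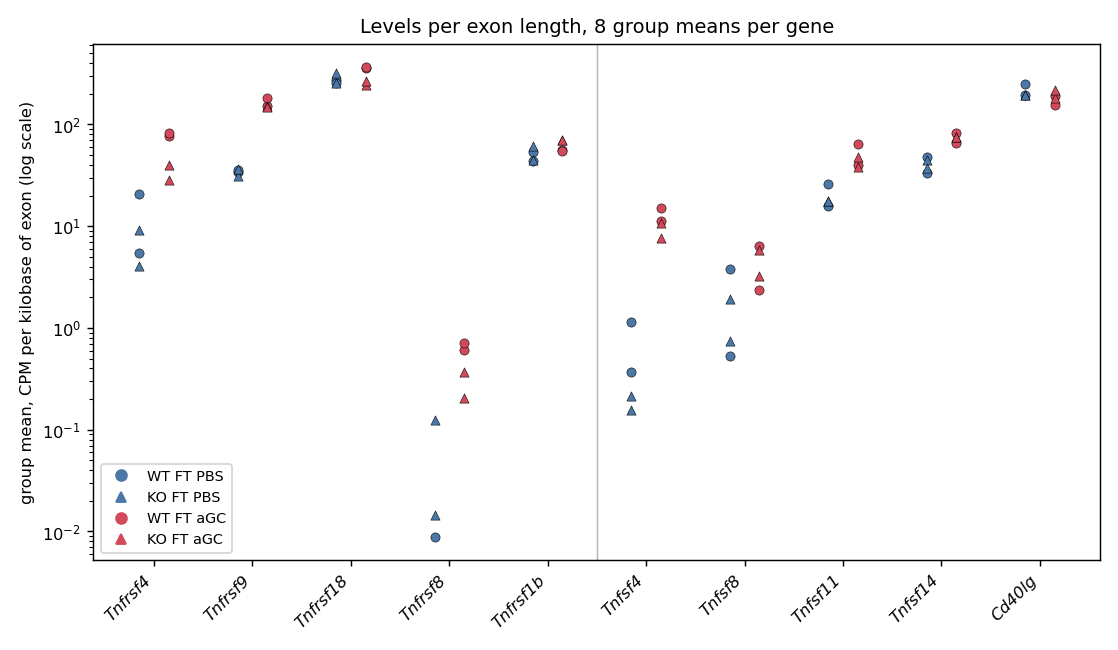
Group means per gene in CPM per kilobase of exon (log scale), receptors on the left and ligands on the right, PBS groups in blue and aGC groups in red, circles for WT FT and triangles for KO FT, 1 point for each of the 8 groups. The PBS points of Tnfrsf4, Tnfrsf9, Tnfrsf8 and Tnfsf4 lie below all aGC points of the same gene, while those of Tnfrsf18 and Cd40lg overlap; Tnfrsf8 in PBS females of WT FT is at 0 and cannot be drawn on a log axis.

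The comparison of aGC with PBS in WT FT mice asks how iNKT cells respond to their glycolipid antigen. Of the 10 genes 9 were higher after aGC and Cd40lg was lower, by edgeR's quasi-likelihood test adjusted over all 15953 genes. With all 24 libraries in 1 fit, 30.9% of all tested genes were called higher and 37.5% lower, 68.4% in all. The median log2 change of the 10 genes was 1.40, against -0.11 over all tested genes. In 7 of the 10 genes every aGC library lay above every PBS library, a pattern seen upwards in 17.9% of all tested genes. When PBS males and aGC females were left out, 8 of the 10 genes were higher and 1 was lower (28.0% and 30.8% of all tested genes). In the fit on 1 summed profile per group, which has 3 residual degrees of freedom, 5 of the 10 passed as higher and 0 as lower (7 at an unadjusted p under 0.05), while 1179 of all tested genes passed as higher and 439 as lower.

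In KO FT mice 8 of the 10 genes were higher after aGC, Tnfrsf18 was lower and Cd40lg did not pass. Of all tested genes 28.1% were called higher and 30.1% lower, 58.1% in all. The median log2 change of the 10 genes was 1.57, against -0.03 over all tested genes. The aGC libraries lay above all PBS libraries in 7 of the 10 genes and in 12.6% of all tested genes. Without PBS males and aGC females, 9 of the 10 genes were higher and Tnfrsf18 stayed lower (24.6% and 23.1% of all tested genes). On 1 summed profile per group 3 passed as higher and 0 as lower (5 at an unadjusted p under 0.05), among 306 and 25 of all tested genes.

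**Figure D2:**
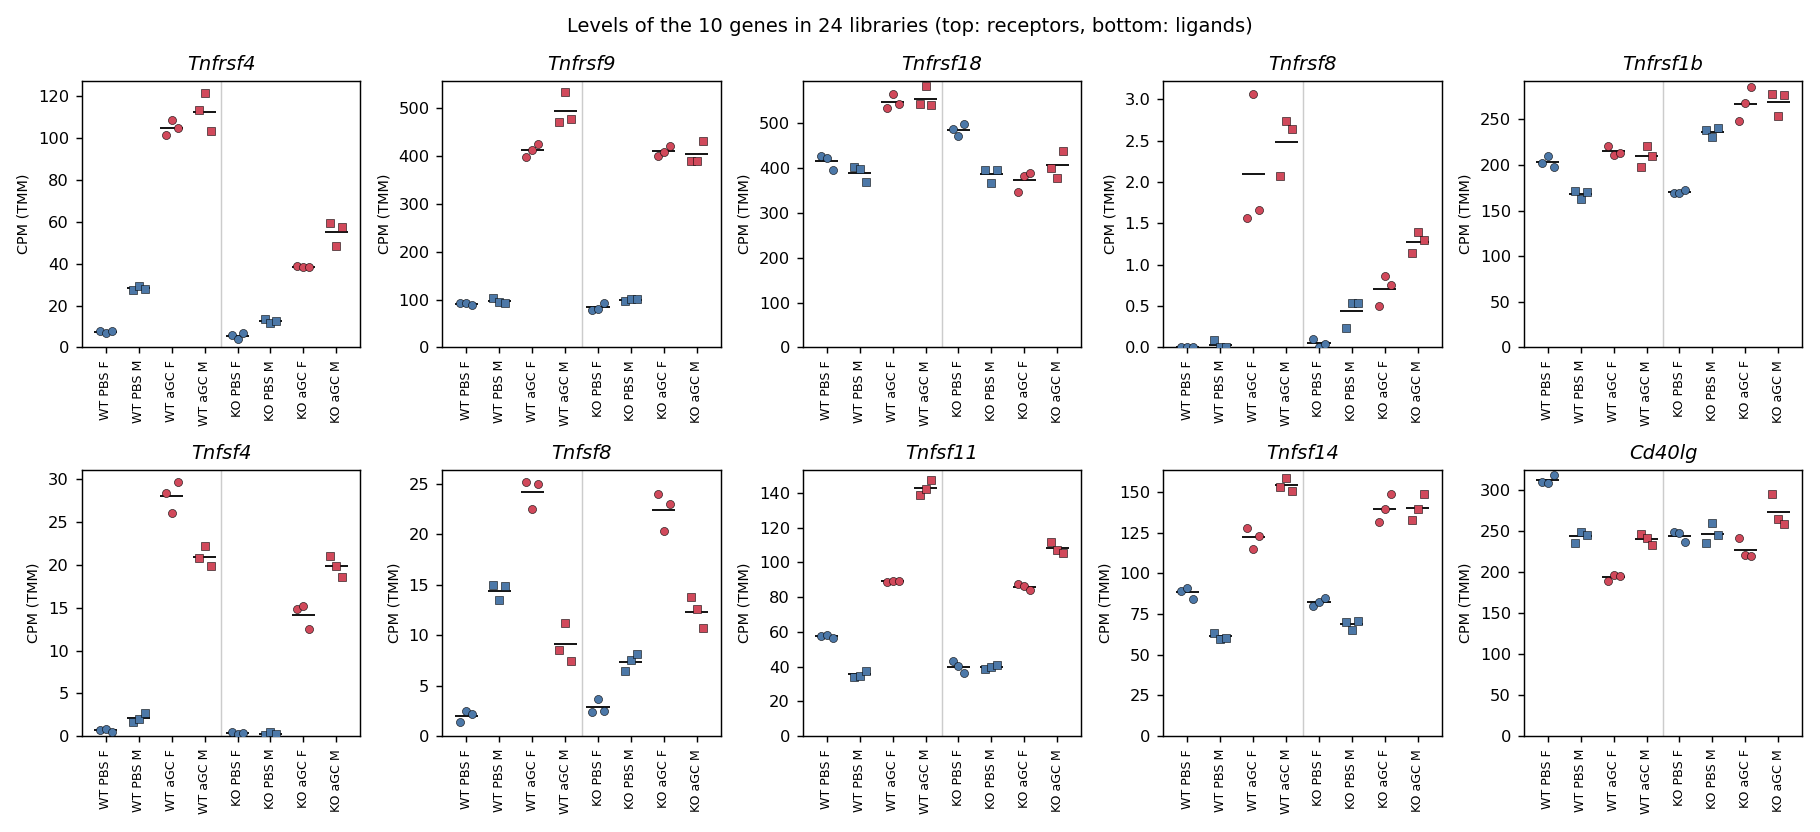
Level of each gene in CPM (TMM) on a linear axis from 0, in each of the 24 libraries, with circles for females, squares for males, blue for PBS, red for aGC and a bar at the mean of 3 libraries. Tnfrsf9, Tnfsf11 and Tnfsf14 separate blue from red in both transplants, and Tnfrsf18 does so in WT FT. For Tnfsf8 the PBS males of WT FT lie between the aGC males and the aGC females, while in KO FT blue and red are apart.

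Within each combination of transplant and sex 9 of the 10 genes passed. In WT FT females 8 were higher and Cd40lg was lower, where 28.6% of all tested genes were called higher and 29.8% lower, 58.4% in all. In WT FT males 8 were higher and Tnfsf8 was lower, against 31.7%, 34.9% and 66.6% of all tested genes. In KO FT females 8 were higher and Tnfrsf18 was lower, against 27.7%, 28.3% and 56.0%. In KO FT males 9 were higher and 0 lower, against 26.8%, 26.7% and 53.5%. Tnfrsf4, Tnfrsf9, Tnfrsf8, Tnfsf4, Tnfsf11 and Tnfsf14 were higher in all 4.

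Among the receptors, Tnfrsf4, which delivers a survival signal to activated T cells, showed the largest change, averaged over the sexes, of those with sizeable counts. In WT FT females its PBS libraries held 7.87, 7.07 and 7.65 CPM and its aGC libraries 102, 109 and 105. In WT FT males they held 27.6, 29.3 and 27.8 CPM after PBS and 114, 122 and 103 after aGC. The groups did not overlap, and PBS males lay above PBS females. The log2 change over both sexes was 2.90 ± 0.08 (SE, adjusted p = 2.09e-19), 3.79 in females and 2.00 in males. In KO FT females the libraries held 5.73, 3.85 and 6.99 CPM after PBS and 39.1, 38.4 and 38.5 after aGC. In KO FT males they held 13.6, 11.9 and 12.5 CPM after PBS and 59.3, 48.4 and 57.6 after aGC. Again no aGC library came near a PBS library, but all 6 aGC libraries were below those of WT FT. The log2 change was 2.45 ± 0.09 (adjusted p = 3.79e-17). Without PBS males and aGC females the log2 changes were 3.91 in WT FT and 3.29 in KO FT. The gene next to Tnfrsf4, Sdf4, lies 233 bases away and changed by -0.08 in WT FT and -0.44 in KO FT on the log2 scale, lower in both transplants.

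Tnfrsf9, a receptor that appears on T cells soon after antigen contact, gave the most even response. Its PBS libraries lay between 89.4 and 103 CPM in WT FT (median 93.1) and between 78.7 and 102 in KO FT (median 95.1). Its aGC libraries lay between 400 and 535 CPM in WT FT (median 449) and between 390 and 431 in KO FT (median 404). All PBS libraries were below all aGC libraries, and the 4 PBS groups overlapped with their neighbours in order of level. The log2 change was 2.26 ± 0.05 in WT FT (adjusted p = 6.49e-22) and 2.15 ± 0.05 in KO FT (adjusted p = 4.24e-21). Over the 4 combinations of transplant and sex it stayed between 2.02 and 2.35, and Tnfrsf9 passed in both transplants on 1 summed profile per group (adjusted p = 0.00323 and 0.00704). Its ligand Tnfsf9 was also read in these cells, at 5.37 to 10.9 CPM after PBS and 23.9 to 43.9 after aGC (group means).

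Tnfrsf18, a receptor that T cells carry at rest and that is dense on regulatory T cells, responded in opposite directions in the 2 transplants. In WT FT the PBS libraries lay between 367 and 426 CPM (median 399) and the aGC libraries between 533 and 581 (median 542). In KO FT the PBS libraries lay between 366 and 497 CPM (median 433) and the aGC libraries between 347 and 438 (median 386). The ranges were apart in WT FT and overlapped in KO FT. The log2 change was 0.46 ± 0.04 in WT FT (adjusted p = 3.67e-10) and -0.15 ± 0.04 in KO FT (adjusted p = 0.00202). In KO FT the fall came with the females, 487, 472 and 497 CPM after PBS and 347, 382 and 389 after aGC, a log2 change of -0.38. The KO FT males did not pass, with a log2 change of 0.07 (adjusted p = 0.279).

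Tnfrsf8, which marks activated T cells, was found at very low counts, so its fitted changes depend on the prior count and its ratios are given from summed counts with exact 95% intervals that cover counting error only. In WT FT females it had 0 counts in all 3 PBS libraries, which allows up to 0.0431 CPM over the group, and 100 counts after aGC, at least 50.6-fold more per count sequenced. In WT FT males 2 counts became 105, a ratio of 77.3 (20.9 to 647). In KO FT females 3 counts became 28, a ratio of 13.7 (4.24 to 70.5). In KO FT males 25 counts became 64, a ratio of 2.75 (1.71 to 4.56). The aGC libraries of WT FT held 1.57 to 3.07 CPM and those of KO FT 0.504 to 1.40 CPM, so these levels did not overlap. The call passed in both transplants (adjusted p = 1.08e-10 and 2.42e-05).

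Tnfrsf1b, the TNF receptor found mainly on lymphocytes, changed least among the receptors that rose in both transplants. In WT FT the PBS libraries lay between 163 and 210 CPM and the aGC libraries between 198 and 221. In KO FT they lay between 169 and 241 CPM and between 248 and 286. The ranges overlapped in WT FT and were apart in KO FT. The log2 changes were 0.20 ± 0.04 (adjusted p = 4.33e-05) and 0.42 ± 0.04 (adjusted p = 8.33e-10). In WT FT the call was lost without PBS males and aGC females (0.06, adjusted p = 0.379).

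Tnfsf4, the ligand of OX40, went from near absence to clear expression. In WT FT females its libraries held 0.774, 0.804 and 0.474 CPM after PBS and 28.4, 26.1 and 29.6 after aGC. In WT FT males they held 1.66, 2.00 and 2.68 CPM after PBS and 20.8, 22.2 and 19.9 after aGC. Every aGC library was above every PBS library. In KO FT females they held 0.526, 0.265 and 0.396 CPM after PBS and 14.8, 15.2 and 12.5 after aGC. In KO FT males they held 0.155, 0.440 and 0.267 CPM after PBS and 21.1, 19.8 and 18.6 after aGC. The lowest PBS levels of all groups were thus in KO FT, where the ranges of the 2 sexes overlapped. The log2 change was 4.30 ± 0.13 in WT FT (adjusted p = 2.03e-18) and 5.49 ± 0.16 in KO FT (adjusted p = 2.28e-18). Dendritic cells and macrophages also make OX40 ligand. The summed level of 12 of their markers lay between 85.0 and 89.5 CPM after PBS and between 25.0 and 29.6 after aGC in WT FT females. In WT FT males it lay between 37.0 and 43.2 CPM after PBS and between 35.9 and 36.1 after aGC. In KO FT females it lay between 54.2 and 65.1 CPM after PBS and between 26.8 and 30.9 after aGC. In KO FT males it lay between 16.7 and 18.4 CPM after PBS and between 51.5 and 55.1 after aGC. In each group 1 to 4 of the 12 markers were at 0, and Clec9a was among them in 7 of the 8 groups. The part of these cells in the Tnfsf4 result was not tested.

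Tnfsf8, the ligand of CD30, had the largest difference in response between the sexes. In WT FT females it rose from 1.41, 2.47 and 2.23 CPM to 25.2, 22.5 and 25.0. In WT FT males it fell from 14.9, 13.5 and 14.8 CPM to 8.50, 11.3 and 7.49. The libraries of each sex were apart, in opposite directions. In KO FT females it rose from 2.42, 3.65 and 2.51 CPM to 24.0, 20.3 and 23.0. In KO FT males it rose from 6.43, 7.57 and 8.18 CPM to 13.8, 12.6 and 10.7. The log2 changes in that order were 3.63, -0.66, 2.99 and 0.73, all past the threshold (adjusted p from 1.64e-13 to 0.0016). Averaged over the sexes they gave 1.48 ± 0.13 in WT FT (adjusted p = 4.39e-10) and 1.86 ± 0.13 in KO FT (adjusted p = 1.24e-11). Leaving out PBS males and aGC females gave 2.21 and 2.13.

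Tnfsf11, which drives lymph node and bone development through RANK, and Tnfsf14, which binds HVEM and the lymphotoxin beta receptor, rose in every combination of transplant and sex. Tnfsf11 lay between 34.3 and 58.5 CPM after PBS in WT FT and between 88.7 and 148 after aGC, and in KO FT between 36.6 and 43.0 and between 84.1 and 112. Tnfsf14 lay between 59.9 and 91.2 CPM after PBS in WT FT and between 115 and 159 after aGC, and in KO FT between 65.2 and 85.1 and between 131 and 149. Neither gene had a PBS library as high as an aGC library. The log2 change of Tnfsf11 was 1.32 ± 0.04 in WT FT and 1.28 ± 0.04 in KO FT (adjusted p = 1.51e-18 and 9.10e-18). The log2 change of Tnfsf14 was 0.90 ± 0.04 in both (adjusted p = 2.99e-15 and 6.76e-15). For both genes the change was larger in males, 2.01 against 0.63 for Tnfsf11 in WT FT and 1.33 against 0.47 for Tnfsf14. Type 3 innate lymphoid cells also make RANK ligand; the summed level of 6 of their markers was 54.7 to 61.9 CPM after PBS and 18.3 to 19.3 after aGC in WT FT females. In WT FT males it was 22.6 to 26.5 CPM and 35.3 to 41.2. It was 61.4 to 63.4 and 29.5 to 32.8 CPM in females and 38.4 to 41.2 and 38.4 to 45.2 in males of KO FT. Of these markers Il22 was at 0 in 3 and Ncr1 in 1 of the 8 groups. The part of these cells in the Tnfsf11 result was not tested.

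Cd40lg, through which helper T cells license B cells and dendritic cells, was lower after aGC in WT FT. Its PBS libraries lay between 235 and 318 CPM (median 278) and its aGC libraries between 188 and 246 (median 215). In KO FT they lay between 235 and 260 CPM (median 246) and between 219 and 295 (median 250). The PBS and aGC ranges overlapped in both transplants. The log2 change was -0.35 ± 0.04 in WT FT (adjusted p = 1.09e-08), from -0.69 in females and -0.02 in males (adjusted p = 0.793). In KO FT it was 0.02 (adjusted p = 0.699), with a 95% interval from -0.06 to 0.10. This combines -0.11 in females (adjusted p = 0.0873) with a rise of 0.14 in males (adjusted p = 0.024), a call that ended in 3 of the 24 fits that each left out 1 library (adjusted p up to 0.193). Without PBS males and aGC females the KO FT value was 0.16 (adjusted p = 0.0218). In order of level, PBS females of WT FT stood above all other groups and aGC females of WT FT below all others, and the groups between overlapped with their neighbours.

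**Figure D3:**
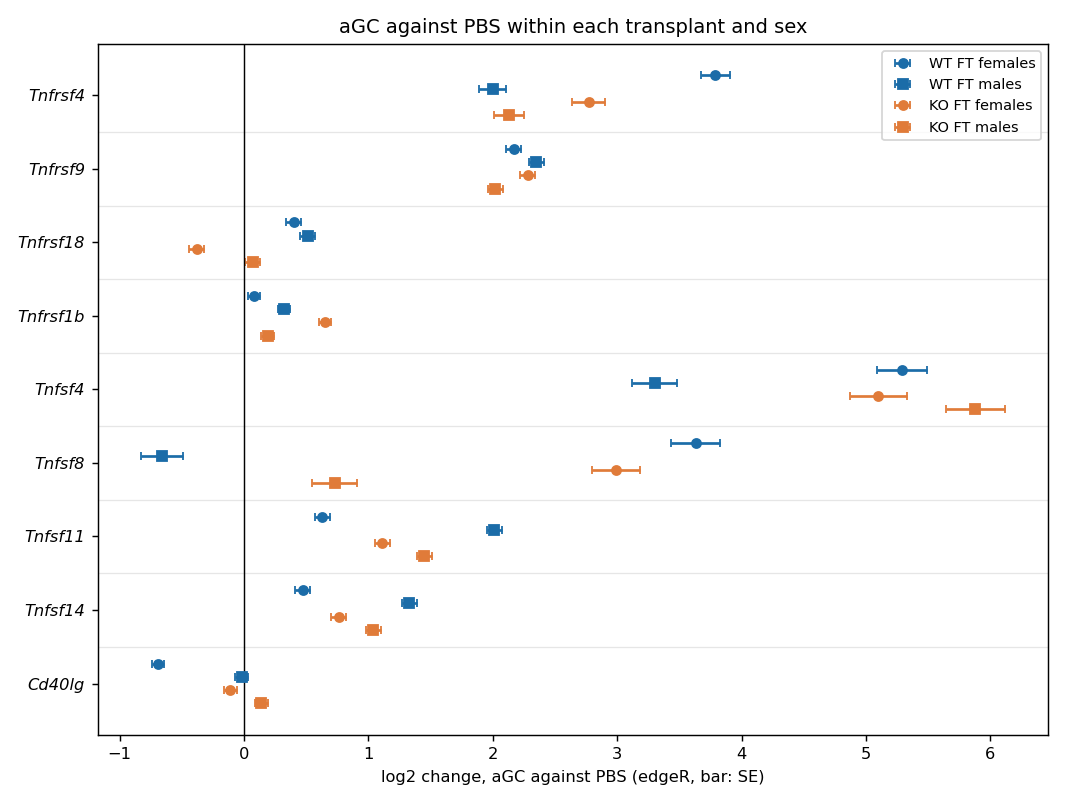
Log2 change of aGC against PBS for 9 genes within each transplant and sex, from the edgeR fit of all 24 libraries, with bars of 1 SE; Tnfrsf8 is left out because its counts are near 0. Tnfrsf9 lies between 2.02 and 2.35 in all 4 combinations, Tnfsf8 runs from -0.66 in WT FT males to 3.63 in WT FT females, and Tnfrsf18 and Cd40lg fall on both sides of 0.

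The receptors and ligands that pair with these genes were mostly low in the sorted cells. Cd40, the receptor of Cd40lg, had group means of 0.554 to 1.96 CPM, and Tnfrsf11a (RANK), the receptor of Tnfsf11, had 0.0976 to 0.980 CPM. Tnfsf18, the ligand of GITR, was at 0 in 6 of the 8 groups and at most 0.119 CPM. Of the receptors of Tnfsf14, Tnfrsf14 (HVEM) lay at 2.45 to 4.48 CPM. Tnf and Lta, both ligands of Tnfrsf1b, were well expressed, at 25.6 to 30.9 and 30.7 to 44.4 CPM after PBS and 127 to 168 and 61.2 to 98.8 after aGC. OX40, 4-1BB and TNF receptor 2 were thus read together with their ligands. Of these receptors Tnfrsf1b in WT FT females did not pass after aGC (0.08, adjusted p = 0.176).

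The comparison of KO FT with WT FT asks how these genes differ between the transplants, where donor, dam, litter and cage cannot be told apart. After PBS 3 of the 10 genes were higher in KO FT, 4 were lower and 3 did not pass. Of all tested genes 14.6% were called higher and 14.8% lower, 29.4% in all, and the median log2 change of the 10 was -0.11 (-0.10 with Tnfrsf8 at its count floor) against 0 over all tested genes. Tnfrsf4 was lower in KO FT by -0.79 ± 0.09 on the log2 scale (adjusted p = 1.15e-06) and Tnfsf4 by -1.73 ± 0.21 (adjusted p = 2.66e-06). The receptor OX40 and its ligand thus shared a direction. For both genes the difference was larger in males, -1.16 against -0.42 for Tnfrsf4 and -2.66 against -0.80 for Tnfsf4, and the value for Tnfsf4 in females did not pass (adjusted p = 0.0609). Foxp3, the defining gene of regulatory T cells, which carry much OX40, was at 17.8 CPM in PBS males of WT FT and 2.75 in PBS males of KO FT. In PBS females Foxp3 was at 1.18 and 0 CPM. Of 6 regulatory T cell markers, Foxp3 among them, 2 were higher and 2 lower in KO FT after PBS. Their summed level was 93.3 to 106 CPM in PBS males of WT FT and 86.2 to 92.6 in those of KO FT. In PBS females it was 85.8 to 89.9 and 89.3 to 95.3 CPM. The part of regulatory T cells in the Tnfrsf4 result was not tested.

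Tnfsf11 was lower by -0.19 and Cd40lg by -0.17 (adjusted p = 0.00154 and 0.00159), from -0.53 and -0.35 in females and 0.16 and 0.02 in males. Tnfrsf1b was higher by 0.12 (adjusted p = 0.0166), from -0.25 in females and 0.49 in males. Tnfrsf18 was higher by 0.11 (adjusted p = 0.0422), a call that ended in 10 of the 24 fits that each left out 1 library (adjusted p up to 0.118). Tnfrsf8 was called higher (adjusted p = 0.0036), from 25 counts against 2 in males, a ratio of 14.4 (3.60 to 126). In females 3 counts against 0 gave no usable ratio. Tnfrsf9 (-0.04, interval -0.14 to 0.05), Tnfsf14 (0.03, -0.06 to 0.12) and Tnfsf8 (-0.22, -0.51 to 0.08) did not pass. The Tnfsf8 value combines 0.53 in females (adjusted p = 0.0684) with -0.96 in males (adjusted p = 0.000113).

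In the PBS females alone, with PBS males and aGC females left out, 1 gene was higher and 3 were lower (13.0% and 13.4% of all tested genes). Tnfrsf1b then turned to -0.25 (adjusted p = 0.00442), and Tnfrsf4 (-0.42, adjusted p = 0.0713), Tnfsf4 (-0.80, adjusted p = 0.0653) and Tnfrsf8 (adjusted p = 0.0869) no longer passed. On 1 summed profile per group 0 of the 10 genes and 0 of all tested genes passed in either direction (2 of the 10 at an unadjusted p under 0.05).

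After aGC 2 of the 10 genes were higher in KO FT, 6 were lower and 2 did not pass. Of all tested genes 25.4% were called higher and 26.5% lower, 51.9% in all, and the median log2 change of the 10 was -0.19 against 0. Tnfrsf4 differed most among genes with sizeable counts. Its group means were 105 ± 3.55 and 113 ± 9.09 CPM (SD, n = 3) in females and males of WT FT and 38.6 ± 0.382 and 55.1 ± 5.87 in those of KO FT. The log2 difference was -1.24 ± 0.07 (adjusted p = 7.60e-12), -1.44 in females and -1.03 in males. Foxp3 was at 6.53 and 6.94 CPM in aGC females and at 0.927 and 1.08 in aGC males of WT FT and KO FT, beside the lower Tnfrsf4 of KO FT. The summed level of 6 regulatory T cell markers, which include the activation genes Il2ra and Ctla4, was 220 to 245 CPM in WT FT and 195 to 214 in KO FT.

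The other receptors went both ways after aGC. Tnfrsf18 was lower in KO FT by -0.50 ± 0.04 (adjusted p = 5.09e-10), -0.55 in females and -0.45 in males. Tnfrsf8 was lower by -1.25 in the fit (adjusted p = 0.00245), and its summed CPM in WT FT was 3.01 times those in KO FT in females (1.96 to 4.75) and 1.95 times in males (1.41 to 2.70). Tnfrsf1b was higher in KO FT by 0.34 ± 0.04 (adjusted p = 6.59e-08), 0.32 in females and 0.36 in males. Tnfrsf9 was lower by -0.15 (adjusted p = 0.00463), -0.01 in females and -0.29 in males. That call ended when replicate 2 or 3 of the aGC females or of the aGC males of WT FT was left out (adjusted p up to 0.158).

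Of the ligands after aGC, Tnfsf4 was lower in KO FT by -0.54 ± 0.11 (adjusted p = 0.000199), with -0.99 in females and -0.08 in males (adjusted p = 0.687). Tnfsf11 was lower by -0.23 (adjusted p = 4.45e-05), -0.05 in females and -0.40 in males. Cd40lg was higher by 0.20 (adjusted p = 7.14e-05), 0.23 in females and 0.18 in males. Tnfsf8 (0.16, interval -0.09 to 0.41) and Tnfsf14 (0.03, interval -0.05 to 0.12) did not pass.

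In the aGC males alone, with PBS males and aGC females left out, 2 of the 10 genes were higher and 4 were lower in KO FT after aGC (22.7% and 21.6% of all tested genes). Tnfsf4 (-0.09, adjusted p = 0.654) and Tnfrsf8 (-0.96, adjusted p = 0.0700) no longer passed, and Tnfrsf4 kept -1.04 (adjusted p = 1.34e-05). On 1 summed profile per group 0 of the 10 genes and 0 of all tested genes passed in either direction (2 of the 10 at an unadjusted p under 0.05).

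Within 1 treatment and sex the counts differed. In PBS females 1 of the 10 genes was higher and 4 were lower in KO FT, where 14.9% of all tested genes were called in each direction, 29.8% in all. In PBS males 4 were higher and 3 lower, against 21.1%, 21.4% and 42.5% of all tested genes. In aGC females 3 were higher and 4 lower, against 19.0%, 24.4% and 43.4%. In aGC males 3 were higher and 4 lower, against 24.2%, 22.4% and 46.5%. Tnfrsf4 was lower in all 4, and Tnfrsf1b was higher in all but the PBS females, where it was lower.

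**Figure D4:**
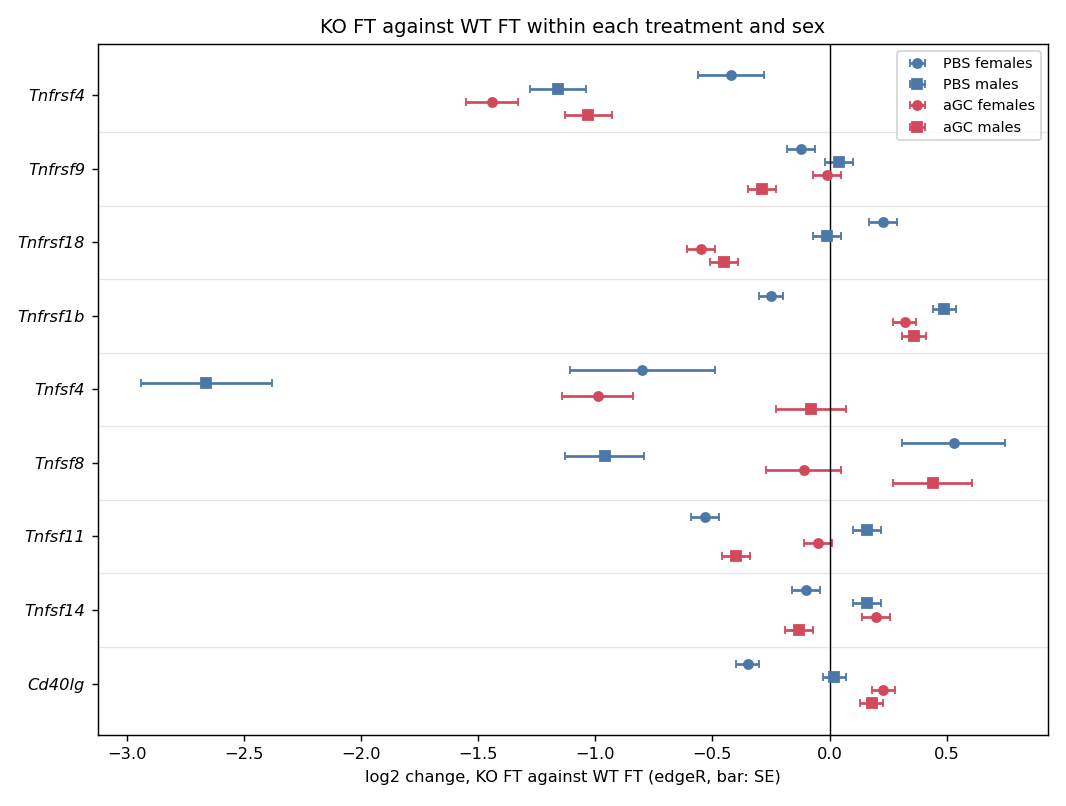
Log2 change of KO FT against WT FT for 9 genes within each treatment and sex, from the same fit, with bars of 1 SE; Tnfrsf8 is left out because its counts are near 0. Tnfrsf4 is below 0 in all 4 combinations (-1.44 to -0.42), Tnfrsf18 is below 0 after aGC (-0.55 and -0.45), and Tnfsf4 runs from -2.66 in PBS males to -0.08 in aGC males.

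The difference between the transplants in the response to aGC was tested as an interaction. The response of 3 of the 10 genes was higher in KO FT, that of 3 was lower and 4 did not pass. Of all tested genes 21.9% were called higher and 22.6% lower, 44.5% in all, and the median of the 10 was -0.02 against 0.01. The responses of Tnfrsf4 (-0.45 ± 0.12, adjusted p = 0.00322), Tnfrsf18 (-0.61 ± 0.06, adjusted p = 1.71e-08) and Tnfrsf8 (-4.55, adjusted p = 0.000247) were lower in KO FT. The responses of Tnfsf4 (1.20 ± 0.24, adjusted p = 0.000267), Cd40lg (0.37 ± 0.05, adjusted p = 5.17e-06) and Tnfrsf1b (0.22 ± 0.05, adjusted p = 0.0015) were higher. The averages over the sexes combine unlike values. The Tnfsf4 response was 5.10 in KO FT against 5.29 in WT FT in females and 5.88 against 3.30 in males. That of Tnfrsf4 was 2.77 against 3.79 in females and 2.13 against 2.00 in males, and that of Tnfrsf1b 0.65 against 0.08 and 0.19 against 0.32. For Tnfrsf9 (-0.11, interval -0.24 to 0.02), Tnfsf8 (0.38, -0.01 to 0.77), Tnfsf11 (-0.04, -0.16 to 0.08) and Tnfsf14 (0, -0.12 to 0.13) no difference passed. Of these 4, the Tnfsf8 response was 2.99 in KO FT against 3.63 in WT FT in females and 0.73 against -0.66 in males. That of Tnfsf11 was 1.11 against 0.63 and 1.45 against 2.01, and that of Tnfsf14 0.76 against 0.47 and 1.04 against 1.33. For these 3 genes the averages thus combine differences of opposite sign. Leaving out PBS males and aGC females, 2 were higher and 3 lower (21.4% and 19.7% of all tested genes), and Tnfsf4 no longer passed (0.71, adjusted p = 0.0915). On 1 summed profile per group 0 of the 10 genes and 0 of all tested genes passed in either direction (2 of the 10 at an unadjusted p under 0.05).

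The response to aGC was also compared between the sexes. It was higher in males for 4 of the 10 genes, lower for 4, and did not pass for 2. Of all tested genes 27.1% were called higher and 24.1% lower, 51.2% in all, and the median of the 10 was -0.07 (-0.08 with Tnfrsf8 at its count floor) against 0.02. Tnfsf8 had the largest difference, -3.27 ± 0.18 (adjusted p = 7.78e-13), and it passed on 1 summed profile per group too (adjusted p = 0.0479). Tnfrsf4 differed by -1.22 ± 0.12 (adjusted p = 7.75e-09). The ligands Tnfsf11 (0.86 ± 0.06), Tnfsf14 (0.57 ± 0.06) and Cd40lg (0.46 ± 0.05) and the receptor Tnfrsf18 (0.28 ± 0.06) responded more in males (adjusted p = 1.85e-11, 2.82e-08, 1.30e-07 and 0.000181). Tnfsf4 (-0.60, adjusted p = 0.0464) combines responses of 3.30 in males against 5.29 in females of WT FT with 5.88 against 5.10 in KO FT. It lost its call in 15 of the 24 fits that each left out 1 library. Tnfrsf8 (-2.16, adjusted p = 0.0338) lost it in 2, without replicate 1 of the PBS females or replicate 1 of the PBS males of WT FT, the latter giving -0.93. Tnfrsf9 (-0.04, interval -0.17 to 0.09) and Tnfrsf1b (-0.11, interval -0.22 to 0) did not pass. On 1 summed profile per group 0 passed as higher and 1 as lower (4 at an unadjusted p under 0.05), among 12 and 89 of all tested genes.

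Cd8a and the naive T cell markers moved with this difference between the sexes. Tnfsf8 lay between 6.43 and 14.9 CPM in PBS males and between 1.41 and 3.65 in PBS females, and between 20.3 and 25.2 CPM in aGC females and between 7.49 and 13.8 in aGC males. Cd8a went from 5.20 and 6.30 CPM in PBS females (KO FT and WT FT) to 136 and 287 in PBS males, and from 7.59 and 6.22 in aGC males to 189 and 245 in aGC females. Within each treatment and transplant the sex with more Cd8a thus also had more Tnfsf8. Tnfrsf4 was higher with Cd8a among the PBS libraries and not among the aGC libraries. In this bulk RNA fewer cells of a type and less RNA per cell cannot be told apart, and the part of Cd8a-expressing cells in the sex difference was not tested. Leaving out PBS males and aGC females leaves 1 sex per treatment, so the sex difference has no value there.

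**Figure D5:**
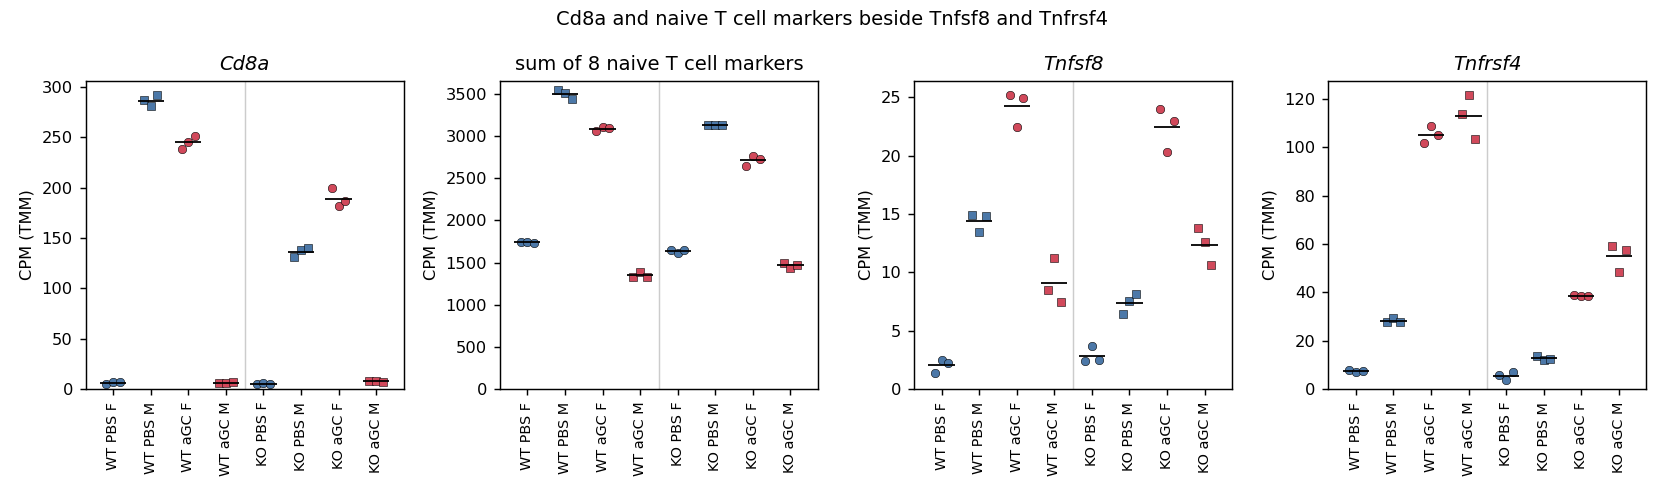
Levels in CPM (TMM, linear axes from 0) of Cd8a, the sum of 8 naive T cell markers, Tnfsf8 and Tnfrsf4 in each of the 24 libraries, with blue for PBS, red for aGC, circles for females, squares for males and a bar at the mean of 3 libraries. Cd8a and the naive markers are high in PBS males and aGC females. The Tnfsf8 panel shows these groups above the other sex of their treatment. Tnfrsf4 is higher after aGC and lower in KO FT within each treatment and sex, and among the PBS libraries it is higher in males.

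The rest of the superfamily went both ways after aGC, where 30.9% of all tested genes were called higher and 37.5% lower in WT FT and 28.1% and 30.1% in KO FT. Of 13 other TNF ligands 6 were tested, and after aGC 3 were higher, 1 was lower and 2 did not pass, in WT FT and in KO FT alike. The inflammatory cytokine Tnf changed by 2.29 and 2.28 on the log2 scale in WT FT and KO FT, the 4-1BB ligand Tnfsf9 by 1.99 and 2.07, and Lta, the gene of lymphotoxin alpha, by 1.15 and 1.17. Ltb, which anchors lymphotoxin in the membrane, fell by 0.78 and by 0.52. Fasl (-0.15 and -0.16) and Tnfsf10 (-0.02 and -0.08) did not pass over both sexes. The Fasl averages combine -1.29 and -0.84 in females with 0.98 and 0.53 in males, all past the threshold (adjusted p = 3.50e-10, 4.42e-07, 2.58e-08 and 0.000233). Of 23 other receptors 18 were tested, of which 5 were higher and 7 lower in WT FT and 3 higher and 6 lower in KO FT. Of those with a group mean of at least 5 CPM, Tnfrsf21 (death receptor 6) changed most, by 2.61 and 3.74. Cd27, a co-stimulatory receptor of resting T cells, fell by 0.66 and by 0.57, Tnfrsf26 by 1.46 and by 0.74, and Tnfrsf13b (TACI) by 0.77 and by 0.85. In WT FT females the Cd27 libraries overlapped, at 231.3 to 243 CPM after PBS and 213.1 to 238.4 after aGC. In WT FT males they lay between 330.4 and 342.4 CPM after PBS and between 135.5 and 147.7 after aGC.

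All 18 adaptor and signal genes of the list were tested. In WT FT 8 were higher, 6 lower and 4 did not pass, against 30.9% of all tested genes higher and 37.5% lower. In KO FT 6 were higher, 2 lower and 10 did not pass, against 28.1% and 30.1%. Tnfaip3, the gene of the NF-kappa-B inhibitor A20, rose by 1.16 in WT FT and 1.95 in KO FT. Nfkb2 rose by 0.84 and 0.92 and Relb by 0.55 and 0.39. Averaged over the sexes, Traf4 changed by 0.94 and 0.42, and its KO FT value combines opposite directions. KO FT females held 24.0 to 25.7 CPM of Traf4 after PBS and 55.5 to 64.1 after aGC, a rise. KO FT males held 41.3 to 48.2 CPM of Traf4 after PBS and 30.6 to 36.5 after aGC, a fall. Cyld, a deubiquitinase that restrains NF-kappa-B, changed by -0.74 in WT FT and -0.01 in KO FT, and Birc2 by -0.61 and -0.08, of which the KO FT values did not pass. Between the transplants 14.6% of all tested genes were called higher and 14.8% lower in KO FT after PBS, and 25.4% and 26.5% after aGC. The other ligands Tnfsf9 and Lta were lower in KO FT after PBS (-0.66 and -0.29) and after aGC (-0.59 and -0.27), the 2 of 6 that passed in each. Of the other receptors 2 were higher and 3 lower in KO FT after PBS, and 3 higher and 1 lower after aGC. Of the adaptor and signal genes 2 were higher and 3 lower after PBS, and 7 higher and 5 lower after aGC, among them Cyld (0.69), Map3k14 (0.57), Traf4 (-0.51) and Traf3 (-0.47).

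For each gene the tested genes with the most similar profile over the 8 group means were found among 9622 genes of at least 5 CPM, by the mean absolute difference of centred log2 levels; the 8 points share their libraries and the measure has no test. Tnfrsf9 had close neighbours: Nfkbid at 0.109, Odc1 at 0.110 and Tnf at 0.119. Tnfsf11 was nearest to Srgn (0.083), Tnfsf14 to M6pr (0.085), Tnfrsf18 to Tpd52 (0.047), Tnfrsf1b to Sec23ip (0.035) and Cd40lg to Ube2q1 (0.049). Genes with a large range over the groups had more distant neighbours: Tnfrsf4 was nearest to Cxcr5 (0.369), Tnfsf4 to Lad1 (0.234) and Cd83 (0.280), and Tnfsf8 to Zfp296 (0.311). Among the 10 genes themselves Tnfsf11 and Tnfsf14 were the closest pair (0.22) and Tnfsf4 and Cd40lg the most distant (2.13). Tnfrsf8 was too close to the added 0.5 CPM for this measure to be read.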

How the data were processed

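RNA of sorted iNKT cells was read in 24 libraries made by Nextera XT tagmentation, which keeps no strand, per the labels' protocols. The authors deposited 1 table of estimated counts per gene, in whole numbers, made with kallisto on GRCm38 (mm10) per the submitters' processing notes; its version, the annotation and the summing of transcripts to genes are not stated there. Estimated counts can split reads between near-identical transcripts. All columns matched a sample's labels. Gene models came from GENCODE M21, and promoter windows from RefSeq.

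The counts were scaled by TMM and low genes were dropped with filterByExpr given the 8 groups (counts of at least 10, totals of at least 15), leaving 15953 of 55335 genes. A quasi-likelihood fit (edgeR 4.0.16, R 4.3.3) gave 8 group means with 16 residual degrees of freedom. Comparisons averaged over the sexes, tests were two-sided, p-values were adjusted by Benjamini-Hochberg over all tested genes, and 0.05 was the threshold. SEs were taken from each log2 change and its F statistic (change over root of F), and a 95% interval adds the matching t quantile. The procedure was tested on simulated data. Alternatives were DESeq2 1.42.0, other scalings, filters and thresholds, a replicate block, 1 summed profile per group, and each library left out. Each group's depth was 3 libraries of 9764931 to 37016768 counts.

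The members, gene lists and markers were chosen with earlier results of these data known. Other genes were named by a rule: from each list up to 5 with the largest called change at 5 CPM or more and up to 3 that did not pass, the partners of the 10 genes, their annotated neighbours, and the nearest 3 profiles.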

Additional observations from a re-analysis of the deposited data

Results flagged for a closer look

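For 6 of the 10 genes the response to aGC differed between the transplants by the interaction test of edgeR (log2, KO FT minus WT FT, adjusted over all genes), as it did for 44.5% of all tested genes. It was lower in KO FT for Tnfrsf4 (-0.45 ± 0.12 SE, adjusted p = 0.00322), Tnfrsf18 (-0.61 ± 0.06, adjusted p = 1.71e-08) and Tnfrsf8 (-4.55 ± 0.88, adjusted p = 0.000247). It was higher in KO FT for Tnfrsf1b (0.22 ± 0.05, adjusted p = 0.0015), Tnfsf4 (1.20 ± 0.24, adjusted p = 0.000267) and Cd40lg (0.37 ± 0.05, adjusted p = 5.17e-06). The values for Tnfrsf4, Tnfrsf1b and Tnfsf4 combine differences of opposite sign in females and males. In males the Tnfrsf4 response was 2.13 in KO FT against 2.00 in WT FT, and that of Tnfrsf1b 0.19 against 0.32. In females that of Tnfsf4 was 5.10 against 5.29. The Tnfsf4 value did not pass without PBS males and aGC females (0.71, adjusted p = 0.0915), and that for Tnfrsf8 rests on 0 to 3 counts in 3 of the 4 PBS groups. None of the 6 passed on 1 summed profile per group, where 2 of the 10 genes had an unadjusted p under 0.05.

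For 8 of the 10 genes the response differed between the sexes (log2, male minus female), as it did for 51.2% of all tested genes. It was lower in males for Tnfsf8 (-3.27 ± 0.18, adjusted p = 7.78e-13), Tnfrsf4 (-1.22 ± 0.12, adjusted p = 7.75e-09), Tnfrsf8 (-2.16 ± 0.83, adjusted p = 0.0338) and Tnfsf4 (-0.60 ± 0.25, adjusted p = 0.0464). The Tnfsf4 value combines a lower response in males of WT FT (3.30 against 5.29) with a higher one in males of KO FT (5.88 against 5.10). It was higher in males for Tnfsf11 (0.86 ± 0.06, adjusted p = 1.85e-11), Tnfsf14 (0.57 ± 0.06, adjusted p = 2.82e-08), Cd40lg (0.46 ± 0.05, adjusted p = 1.30e-07) and Tnfrsf18 (0.28 ± 0.06, adjusted p = 0.000181). Cd8a was between 131 and 292 CPM in PBS males and aGC females and between 4.79 and 8.10 in the other libraries, and its part in these differences was not tested.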

How the results depend on the processing

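The stricter filter of 5 CPM in 3 libraries dropped Tnfrsf8, so its counts are of the remaining genes. Other settings were DESeq2's size factors in edgeR, the replicate block and the fit of the compared groups alone. With all of these, every count in the 6 comparisons of the report that could be fitted stayed within 1.5 times its value. With the replicate block these included 9 higher in WT FT after aGC, and 3 calls ended: Tnfrsf18 in KO FT against WT FT after PBS (0.11, adjusted p = 0.0575), the sex difference of Tnfsf4 (-0.60, adjusted p = 0.0595) and Tnfsf11 between PBS males (0.15, adjusted p = 0.0530). Same-numbered libraries showed no common deviation (84 pairs, correlations from -0.24 to 0.41, median -0.01, 7 over 0.1, and 5 of 24 libraries correlated best with their own number). Pairs of different number (168) gave -0.31 to 0.22, median 0, with 29 over 0.1. No pairing by number was thus seen, but the check cannot exclude one that leaves a weak trace. With a threshold of 0.01, with no filter, and without PBS males and aGC females, 1 gene was higher in KO FT after PBS. With a threshold of 0.01, with no filter and with DESeq2, 2 had a lower response in males. Asking for a change of at least 1.5-fold left 0 lower after aGC in WT FT and 0 in KO FT, 1 higher and 2 lower in KO FT after PBS, 0 higher and 2 lower after aGC, 1 with a higher response in KO FT and 1 in males. On 1 summed profile per group 5 were higher and 0 lower after aGC in WT FT, 3 and 0 in KO FT, 0 and 0 for each of the 3 transplant comparisons, and 0 and 1 for the sex difference. The cause of these moves was not tested, apart from the stricter rules and the fewer profiles themselves. Over all tested genes, the calls after PBS went from 2323 higher and 2367 lower to 1382 and 1425 at 0.01. The 1.5-fold rule gave 3156 and 3814 in WT FT (4933 and 5975 without it), 2410 and 2308 in KO FT (4477 and 4796), 910 and 835 after PBS, 2085 and 954 after aGC (4049 and 4229), 2074 and 1356 for the interaction (3492 and 3601) and 2465 and 2214 for the sexes (4323 and 3846). Without PBS males and aGC females Tnfrsf1b reversed in KO FT against WT FT after PBS (-0.25). Leaving out each library in turn left every count within 1.5 times; of the 60 changes in the 6 comparisons 4 lost a call and 3 gained one at least once. Tnfrsf8 limits the set most: its counts were 0 to 3 in 3 of the 4 PBS groups.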

Other observations

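The response to aGC of genes downstream of these receptors was compared between the transplants (edgeR interaction, log2, KO FT minus WT FT). Of 18 adaptor and signal genes 3 had a higher response in KO FT, 2 a lower response and 13 did not pass, where 21.9% of all tested genes were called higher and 22.6% lower, 44.5% in all. Tnfaip3, the gene of A20, stood at 44.6 ± 1.11 and 66.1 ± 3.09 CPM (SD, n = 3) after PBS and 246 ± 3.67 and 178 ± 10.1 after aGC in females and males of KO FT. In WT FT it stood at 71.9 ± 6.44 and 63.9 ± 4.28 CPM after PBS and 120 ± 7.74 and 191 ± 12.5 after aGC. The difference in response was 0.79 (adjusted p = 8.66e-09). By these means it came with the females, and the rise in males was not larger in KO FT. The differences of Cyld and Birc2, both regulators of ubiquitin at TNF receptors, were 0.73 and 0.53 (adjusted p = 4.37e-07 and 0.000199). The adaptors Traf3 and Traf4 differed by -0.63 and -0.51 (adjusted p = 0.000239 and 3.10e-05). Of 18 tested receptors outside the 10 genes 4 had a higher response in KO FT and 2 a lower. The latter were Fas (-0.55, adjusted p = 1.49e-05) and Ltbr (-2.0, adjusted p = 0.0235, at group means of 1.34 CPM or less). In females the group means of Fas went from 44.5 to 53.24 CPM in WT FT and from 48.84 to 58.03 in KO FT. In males they rose from 36.88 to 65.41 CPM in WT FT and fell from 52.06 to 43.66 in KO FT. The Fas difference thus came with the males.

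Tnfrsf21, the gene of death receptor 6, had group means of 2.63 and 1.36 CPM in PBS females and males of WT FT and 3.70 and 0.171 in those of KO FT. After aGC they were 9.20 and 14.7 CPM in WT FT and 10.8 and 9.58 in KO FT. Averaged over the sexes its response was higher in KO FT (edgeR interaction, 1.13, adjusted p = 0.000196). By the group means this came with the males, and the rise in females was not larger in KO FT. The lowest level was that of KO FT PBS males, which held 8 counts in all.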
